A study of Ovis aries with 6 samples.

Results

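The transcription factors SNAI1, SNAI2, ZEB1, ZEB2, TWIST1, TWIST2 and PRRX1 were examined in cultured sheep mitral valve endothelial cells. They were taken by gene symbol from a table of raw RNA sequencing counts. All 7 symbols were found among its 18865 rows, and 6 passed the filter on low counts. TWIST2 did not pass. The cells line the leaflets of the mitral valve. They were cultured for 24 h with plasma of naive sheep (3 libraries) or of sheep that had had a myocardial infarction (MI; post-MI plasma, 3 libraries). No genetic change or other agent is given for either group, and the labels do not say when after infarction the plasma was drawn. Nor do they tie a library to its own culture, plasma animal or cell animal, so the p-values rest on a spread between libraries that may be technical.

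These factors are the classical drivers of endothelial-to-mesenchymal transition (EndMT). In this process the cells of an endothelium loosen their junctions and take on a migratory, matrix-producing state. SNAI1 (Snail) and SNAI2 (Slug) are zinc finger repressors and ZEB1 and ZEB2 are zinc finger homeobox repressors. All of them bind E-box sequences in promoters, including those of cadherin genes. TWIST1 and TWIST2 are basic helix-loop-helix factors that pair with E proteins, and PRRX1 is a homeobox factor of mesenchyme. In the embryo, EndMT of the endocardium builds the cushions from which the mitral valve forms, and SNAI1, SNAI2 and TWIST1 are known there as genes of the transition.

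Total counts per library were 14858472 to 20672794. Naive replicate 1 stood apart on the first principal component of the 500 most variable genes (-52.3, against -0.50 to 18.5 in the other 5 libraries). Some of the results, but not all, are also given without it. Post-MI replicate 3 stood apart in MX2, an antiviral GTPase named here after its values were seen, which was at 327 CPM there and at most 8.6 CPM in the other 5 libraries. All 12 endothelial markers examined were detected, with a summed level of 3080 to 3480 counts per 1000000 counts of the library (CPM) in the naive and 3200 to 4510 CPM in the post-MI libraries. The 10 markers of valve interstitial cells and fibroblasts were detected as well, at a summed 11100 to 20500 CPM in the naive and 14100 to 18700 CPM in the post-MI libraries, most of it from collagen genes. The 7 leukocyte markers in the table summed to 35.1 to 54.9 CPM in the naive and 33.9 to 40.6 CPM in the post-MI libraries, mostly from CD14 and CD68. PTPRC (CD45), the defining leukocyte marker, had a count of 4, 6 and 3 in the naive replicates and of 12, 12 and 23 in the post-MI replicates, at most 1.32 CPM, and its groups did not overlap (log2 fold change 2.01 ± 0.54, SE; edgeR adjusted p = 0.443). CD14 gave -0.20 ± 0.22 and CD68 -0.29 ± 0.24 (SE). The part of leukocyte RNA in the levels of the factors was not tested. The epithelial marker CDH1 had no count in any library. In bulk RNA a smaller share of cells of one type and less RNA per cell cannot be told apart. CPM is not corrected for gene length, so levels are compared between groups and not between genes.

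Of the 7 factors, SNAI2 had the clearest separation of the groups. Its mean of 23.2 ± 8.17 CPM in the naive libraries stood against 45.3 ± 4.60 CPM in the post-MI libraries (SD, n = 3 per group), and every post-MI library lay above every naive library. TWIST1 also separated, by a small margin and at a low level, with means of 2.22 ± 0.374 and 2.97 ± 0.115 CPM (SD, n = 3 per group). SNAI1, ZEB1, ZEB2, TWIST2 and PRRX1 overlapped between the groups. None of the 6 tested factors was called by edgeR's quasi-likelihood test after Benjamini-Hochberg adjustment at 0.05 over all 14326 genes tested, where 0% of genes were called in all. At an unadjusted p under 0.05 edgeR gave 1 of the 6 (SNAI2), where 8.68% of all genes tested lay under that p. Non-overlap in the upward direction was found for 2 of the 6 tested factors, where 7.43% of all genes tested did not overlap in that direction, and downward for 0 of 6, where 8.65% did.

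**Figure D1:**
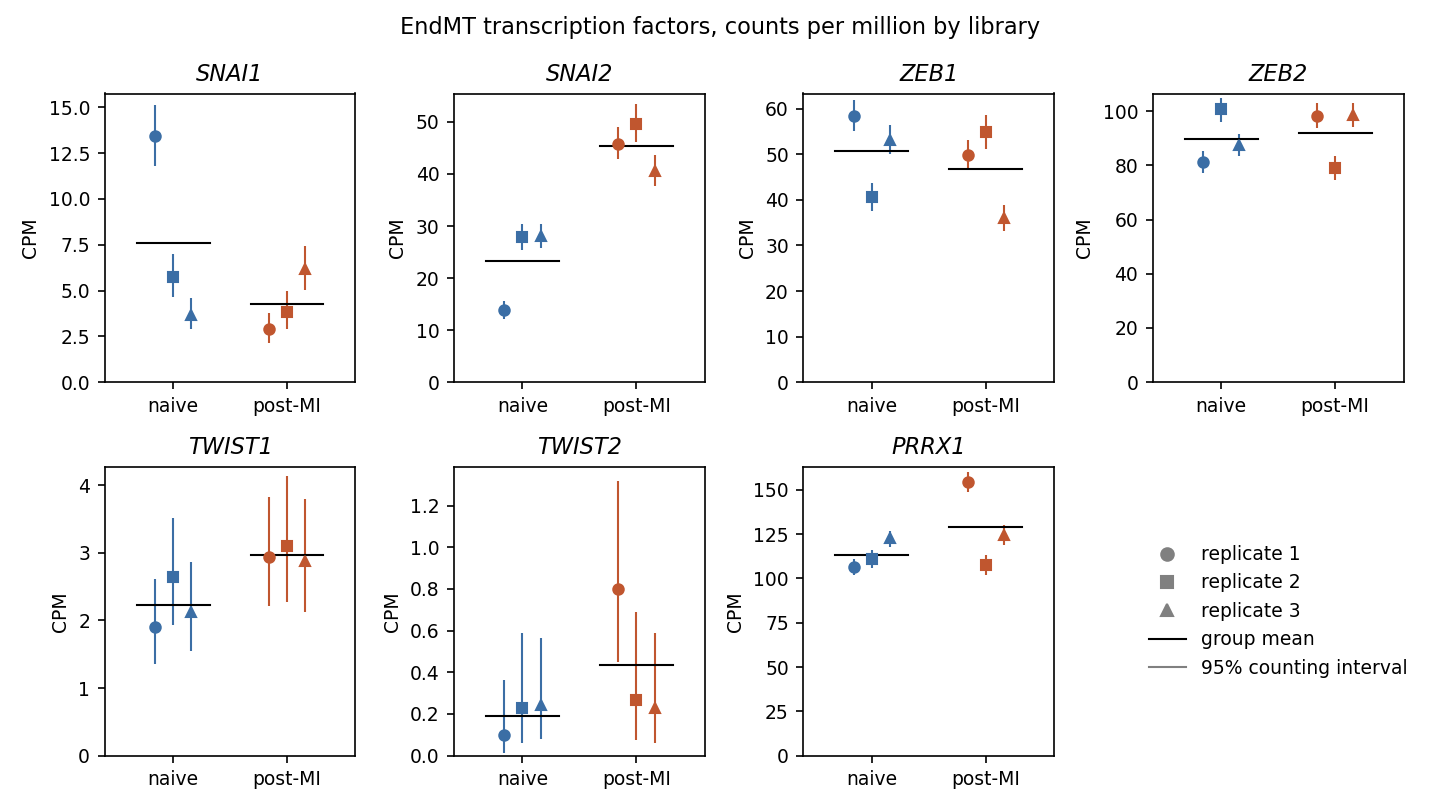
CPM of the 7 factors in each library, with 1 panel per gene, naive libraries in blue and post-MI libraries in orange; symbols mark replicates, vertical bars are exact 95% binomial intervals for counting error and horizontal lines are group means. SNAI2 and TWIST1 do not overlap between the groups, and SNAI1 is high in naive replicate 1, at 13.4 CPM.

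SNAI2, which in development marks cells leaving an epithelium and which represses cadherin and claudin genes, was at 13.8, 27.9 and 28.1 CPM in naive replicates 1, 2 and 3. In post-MI replicates 1, 2 and 3 it was at 45.8, 49.7 and 40.5 CPM. The lowest post-MI library was 1.44 times the highest naive library. Counts of 275 to 859 per library put the counting error well inside that gap: the exact 95% binomial (Clopper-Pearson) interval reached up to 30.4 CPM in naive replicate 3 and down to 37.6 CPM in post-MI replicate 3. The log2 fold change was 0.99 ± 0.27 (SE), a fold of 1.98 with a 95% interval of 1.27 to 3.103. By edgeR's quasi-likelihood test the unadjusted p was 0.00842, which 1.71% of genes tested undercut, and the adjusted p was 0.489. An exact two-sided permutation test on CPM gave p = 0.1, the smallest that 3 libraries against 3 allow. Naive replicate 1 held the lowest SNAI2 level, and the other naive libraries differed by little from each other. Without naive replicate 1 the log2 fold change was 0.73 ± 0.15 (SE) with an edgeR adjusted p of 0.213. Over the 6 fits that each left out 1 library it ran from 0.73 to 1.16. The DESeq2 Wald test, which called 1.52% of genes tested, gave 0.99 with an adjusted p of 0.0651, and adjusted p over all alternatives ran from 0.0651 to 0.969.

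SNAI1, the founding repressor of the family, was at 13.4, 5.73 and 3.68 CPM in naive replicates 1, 2 and 3. Post-MI replicates 1, 2 and 3 were at 2.88, 3.84 and 6.15 CPM. The groups overlapped, and naive replicate 1 was the highest of all libraries with 267 counts against 54 to 107 elsewhere. The log2 fold change was -0.81 ± 0.52 (SE; edgeR adjusted p = 0.639), with a 95% interval of -2.03 to 0.42. Without naive replicate 1 it was -0.10 ± 0.38 (SE). Without post-MI replicate 3, the highest library of its group, it was -1.16, so both ends of the range came from single libraries. Within the naive group the highest level was 3.65 times the lowest. The spread of SNAI1 (67.4% coefficient of variation in the naive and 39.2% in the post-MI group) was far above the counting error of 8.23% and 11.7%.

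Because the members of each pair are relatives, their balance within a library was also computed as a log2 ratio of counts, in which library size cancels. These ratios are a description and were not tested, and gene length affects their level but not their difference between libraries. The ratio of SNAI2 to SNAI1 counts was 1.03, 4.86 and 7.63 in naive replicates 1, 2 and 3 and 15.9, 12.9 and 6.59 in post-MI replicates 1, 2 and 3. Post-MI replicates 1 and 2 lay above every naive library, and post-MI replicate 3 lay below naive replicate 3. The mean log2 ratio was 1.75 ± 1.52 with naive and 3.47 ± 0.67 with post-MI plasma (SD, n = 3 each). Their difference was 1.72, and 0.86 without naive replicate 1. ZEB2 to ZEB1 gave 0.83 ± 0.43 and 0.99 ± 0.47 (SD, n = 3 each), a difference of 0.15 and of -0.03 without naive replicate 1.

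**Figure D2:**
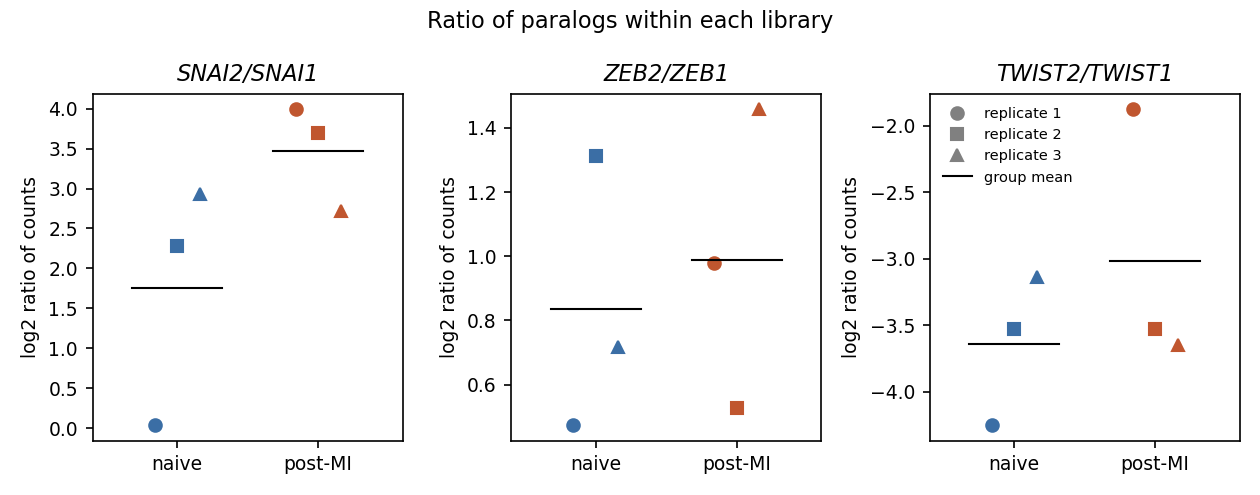
Log2 ratio of counts of SNAI2 to SNAI1, ZEB2 to ZEB1 and TWIST2 to TWIST1 within each library, with naive libraries in blue, post-MI libraries in orange and group means as lines; each panel has its own vertical axis. For SNAI2 to SNAI1, naive replicate 1 lies near 0 (0.04) and post-MI replicate 1 is the highest (3.99).

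ZEB1, which represses epithelial genes and is held in check by the miR-200 family, was at 58.4, 40.5 and 53.2 CPM in naive replicates 1, 2 and 3. With post-MI plasma it was at 49.8, 54.8 and 35.9 CPM in replicates 1, 2 and 3. Its groups overlapped throughout, with naive replicate 2 and post-MI replicate 3 as the low libraries. The log2 fold change was -0.09 ± 0.21 (SE; edgeR adjusted p = 0.906), and the 95% interval of the fold was 0.669 to 1.32. Its sign turned when naive replicate 1 (0.039) or post-MI replicate 3 (0.073) was left out.

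ZEB2, the partner of SMAD proteins, was at 81.2, 100.7 and 87.4 CPM in naive replicates 1, 2 and 3 and at 98.1, 78.9 and 98.7 CPM in post-MI replicates 1, 2 and 3. The ranges of the groups nearly coincided. Its log2 fold change was 0.06 ± 0.16 (SE; edgeR adjusted p = 0.924), with a 95% interval of the fold of 0.806 to 1.34, and -3e-04 without naive replicate 1. Of all genes tested, 84.4% had a larger absolute log2 fold change. With 1173 to 1839 counts per library, counting error was 2.41% and 2.52% in the groups, under the observed variation of 11.1% and 12.2%.

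TWIST1, which is needed for growth and migration of valve cushion mesenchyme, was at 1.91, 2.64 and 2.13 CPM in naive replicates 1, 2 and 3. It was at 2.93, 3.096 and 2.87 CPM in post-MI replicates 1, 2 and 3. The lowest post-MI library was 1.09 times the highest naive library, and with 38 to 55 counts per library the counting intervals of the groups overlapped (1.93 to 3.52 CPM for naive replicate 2, against 2.13 to 3.79 CPM for post-MI replicate 3). The post-MI libraries varied by 3.88%, less than the 14.1% that counting error alone gives. The log2 fold change was 0.44 ± 0.26 (SE; edgeR adjusted p = 0.618), with a 95% interval of -0.17 to 1.04, and it ran from 0.35 to 0.59 with single libraries left out. The exact two-sided permutation p was 0.1, again the smallest possible.

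TWIST2, its close relative, was nearly silent: naive replicates 1, 2 and 3 held 2, 4 and 5 counts, and post-MI replicates 1, 2 and 3 held 15, 4 and 4. Post-MI replicate 1 alone stood out, at 0.800 CPM with a counting interval of 0.448 to 1.32 CPM. The other 5 libraries were between 0.100 and 0.269 CPM, close to the floor of 3 counts per library (0.145 to 0.202 CPM). TWIST2 was under the count filter. Fitted without the filter, its log2 fold change was 1.21 ± 0.71 (SE; edgeR adjusted p = 0.666), and 0.41 without post-MI replicate 1. The post-MI libraries varied by 73.5%, against 36.1% from counting error.

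PRRX1, a factor of limb, craniofacial and heart mesenchyme, was at 106.4, 110.9 and 122.6 CPM in naive replicates 1, 2 and 3. Post-MI replicates 1, 2 and 3 were at 154.7, 107.6 and 124.3 CPM. Post-MI replicate 1 was the highest of the 6 libraries, and post-MI replicate 2 lay within the naive range. The log2 fold change was 0.21 ± 0.16 (SE; edgeR adjusted p = 0.694), with a 95% interval of the fold of 0.883 to 1.51. Without post-MI replicate 1 it was 0.06. Its low variation in the naive group (7.41%) rested on 1935 to 2535 counts per library.

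**Figure D3:**
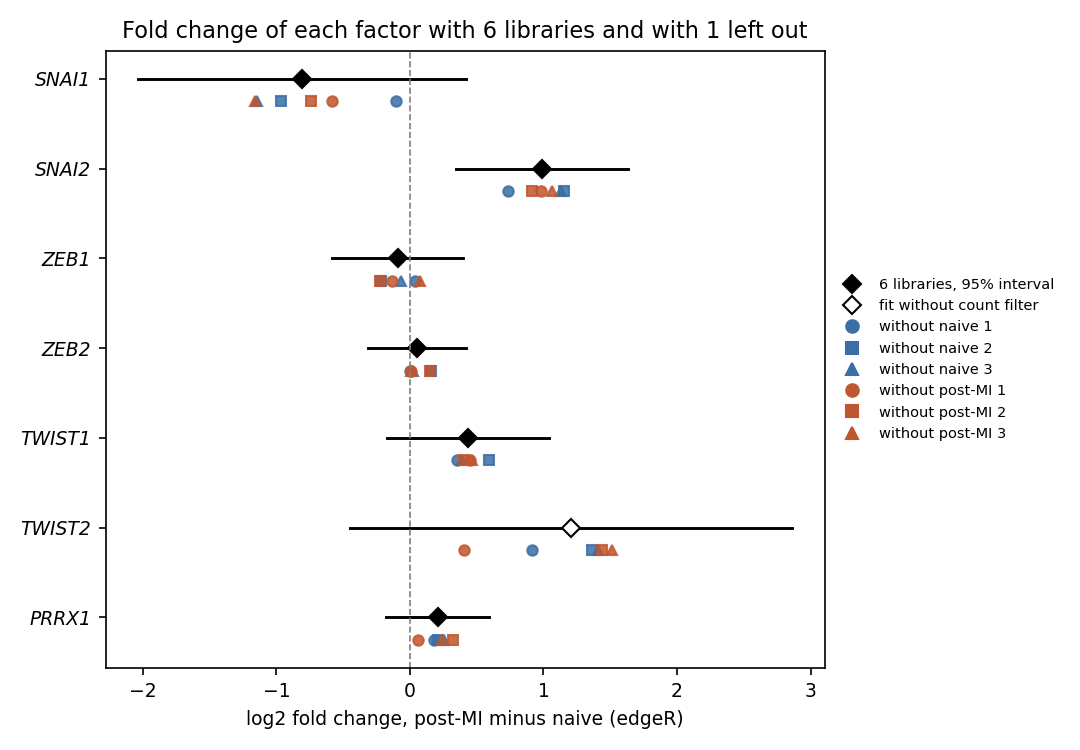
Log2 fold change (post-MI minus naive, edgeR) of each factor; black diamonds with bars are the fits of 6 libraries with 95% intervals, the open diamond is TWIST2 in the fit without a count filter, and coloured symbols are the fits without 1 library. The interval of SNAI2 (0.34 to 1.63) lies above 0, and SNAI1 moves to -0.10 without naive replicate 1.

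The 6 tested factors did not share 1 pattern over the libraries. The root mean square difference between log2 CPM profiles, each centred on its own mean over the 6 libraries, was smallest for ZEB2 and PRRX1 (0.16) and largest for SNAI1 and SNAI2 (1.27). SNAI2 was nearest to TWIST1 (0.40), and both were lowest in naive replicate 1 and highest in post-MI replicate 2. By the same measure, taken over 13421 genes whose average log2 CPM was 1 or more, the 3 genes nearest to SNAI2 were ARHGAP26 (0.07), the provisional locus LOC114112551 (0.12) and ITPK1 (0.12), an inositol phosphate kinase. ARHGAP26 was at 4.97, 9.11 and 9.48 CPM in naive and 16.8, 17.8 and 15.5 CPM in post-MI replicates 1, 2 and 3. The median distance from SNAI2 to all such genes was 0.67. It was 0.74 for SNAI1, 0.34 for ZEB1, 0.28 for ZEB2, 0.36 for TWIST1 and 0.31 for PRRX1. Profiles were not scaled, so genes that vary little lie near each other whatever their pattern. ZEB2 and PRRX1 had their highest levels in different libraries, naive replicate 2 and post-MI replicate 1. The genes nearest to SNAI1 were 3 provisional loci without a gene name, LOC114109281 (0.13), LOC101103702 (0.17) and LOC101123328 (0.19). ZEB1 was nearest to FAM49A (0.03), KLF3 (0.05) and ABHD17B (0.07), and ZEB2 to TRAF3IP1 (0.03), UBE3B (0.04) and RANBP3 (0.04). TWIST1 was nearest to JOSD2 (0.03), TMEM268 (0.04) and AAMDC (0.04), and PRRX1 to TAF4B (0.06), TAL1 (0.06) and IER2 (0.07). With 6 libraries such nearness is a description of these samples alone.

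The genes around the factors were read from lists, none of which had a member called by edgeR after adjustment over all genes. Among 14 tested members of a list of other transcription factors linked to mesenchymal transition, log2 fold changes were positive for 11 and negative for 3, with a median of 0.21 against -0.01 over all genes tested. FOXC2, a forkhead factor of vessel and valve development, was at 8.08, 25.1 and 15.6 CPM in naive and 32.6, 27.1 and 41.7 CPM in post-MI replicates 1, 2 and 3. Its groups did not overlap, and it was the 1 member of the 14 that did not overlap upward, where 7.43% of all genes tested did not (log2 fold change 1.08 ± 0.39, SE; edgeR adjusted p = 0.561; 0.76 without naive replicate 1). GATA4, a cardiac and cushion factor, gave 0.55 ± 0.24 (SE) with overlapping groups. With single libraries left out it ran from 0.38 to 0.83, the highest without naive replicate 2. MRTFA, a co-activator of serum response factor, also overlapped and gave 0.34 ± 0.22 (SE; 0.16 without naive replicate 1 and 0.56 without naive replicate 2). SCRT1 and GSC had no count in any library.

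**Figure D4:**
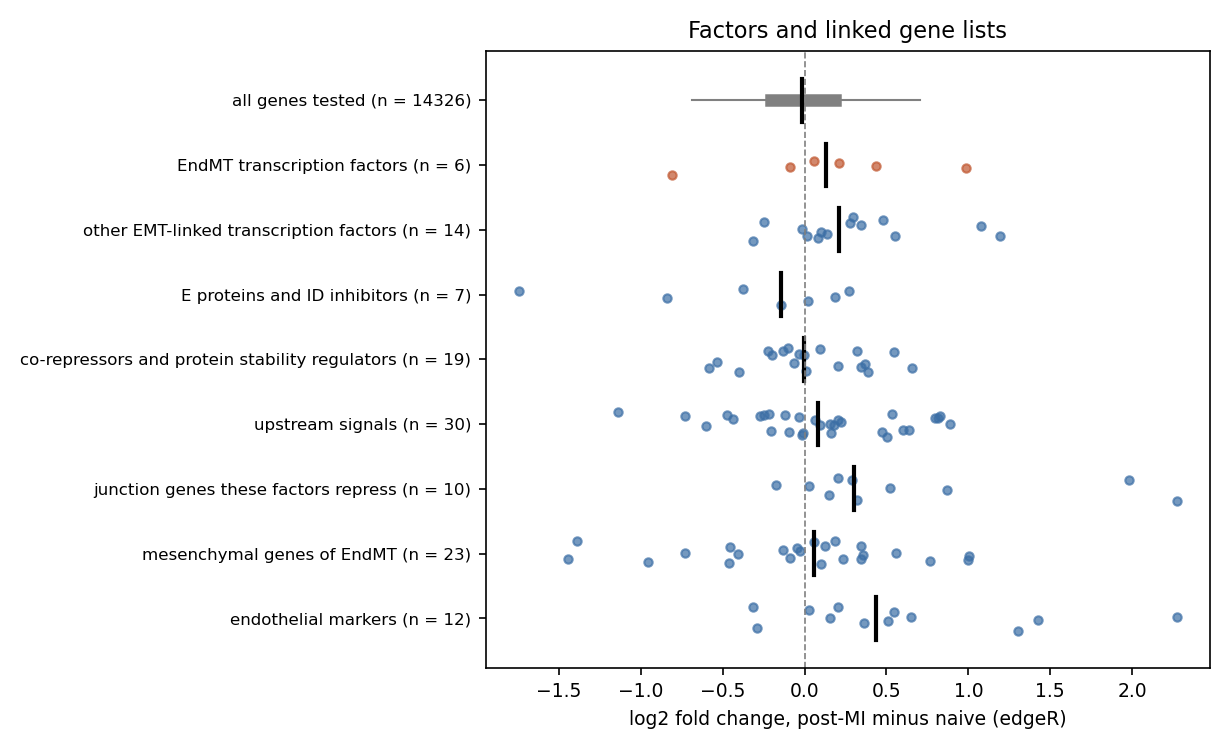
Log2 fold changes (post-MI minus naive, edgeR) of the tested members of each list shown, 1 point per gene, with the median as a black bar. For all genes tested the thick bar spans the interquartile range and the thin line the 5th to 95th percentile. The lists of valve interstitial cell or fibroblast, smooth muscle or pericyte and leukocyte markers are not shown. The EndMT factors have a median of 0.13, between -0.81 for SNAI1 and 0.99 for SNAI2, and the E proteins and ID inhibitors have a median of -0.14.

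TWIST factors act as dimers with the E proteins TCF3, TCF4 and TCF12, and ID proteins, which lack a DNA-binding region, sequester those partners. The E proteins overlapped between the groups, with log2 fold changes of 0.02 ± 0.15 for TCF3, 0.19 ± 0.21 for TCF4 and -0.14 ± 0.14 for TCF12 (SE). Over the leave-one-out fits their ranges were -0.070 to 0.13, 0.032 to 0.38 and -0.22 to -0.069 respectively. ID2 was at 22.9, 28.1 and 26.1 CPM in naive and 13.1, 15.5 and 13.7 CPM in post-MI replicates 1, 2 and 3. Every post-MI library of ID2 was below every naive library, and the log2 fold change was -0.84 ± 0.15 (SE; edgeR adjusted p = 0.292; DESeq2 adjusted p = 0.003, and 0.003 to 0.871 over all alternatives). ID1 was at 14.9, 3.32 and 8.85 CPM in naive and 1.76, 1.68 and 4.48 CPM in post-MI replicates 1, 2 and 3, with post-MI replicate 3 above naive replicate 2. Its log2 fold change was -1.75 ± 0.61 (SE), and -1.17 without naive replicate 1. ID3 gave -0.37 ± 0.19 and ID4 0.27 ± 0.72 (SE), where ID4 was at -0.19 with naive replicate 1 left out and at 1.55 with naive replicate 2 left out. Log2 fold changes of the 7 E protein and ID genes were positive for 3 and negative for 4, and without naive replicate 1 positive for 1 and negative for 6.

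Snail and ZEB proteins silence genes through co-repressors, and the Snail proteins are short-lived and marked for breakdown by ubiquitin ligases. In this list of 19 tested genes 9 log2 fold changes were positive and 10 negative, with a median of -0.01. EZH2, the histone methyltransferase of Polycomb, was at 31.2, 31.2 and 24.96 CPM in naive and 44.3, 43.5 and 38.0 CPM in post-MI replicates 1, 2 and 3. Those groups did not overlap (0.55 ± 0.15, SE; edgeR adjusted p = 0.489). LOXL2, a lysyl oxidase known to stabilise SNAI1, did not overlap either and was lower with post-MI plasma (-0.58 ± 0.19, SE; edgeR adjusted p = 0.545). The ubiquitin ligase subunits FBXL5 (0.66 ± 0.21), FBXW7 (0.37 ± 0.16) and FBXL14 (0.32 ± 0.16) had positive log2 fold changes (SE). The ligase subunits BTRC and FBXO11 gave 0.008 ± 0.17 and -0.06 ± 0.13 (SE). Co-repressors went both ways. CTBP1 (0.39 ± 0.18, and 0.25 without naive replicate 1), AJUBA (0.34 ± 0.16), RCOR1 (0.20 ± 0.17) and SIN3A (0.09 ± 0.15) were positive (SE). HDAC1 (-0.10 ± 0.13) and KDM1A (-0.20 ± 0.15) were lower without overlap (SE). HDAC2 (-0.13 ± 0.15) and CTBP2 (-0.01 ± 0.14) were negative with overlapping groups (SE). GSK3B, a kinase that marks SNAI1 for breakdown, gave -0.23 ± 0.15 (SE), and -0.093 without naive replicate 1. Non-overlap was found upward for 5 and downward for 4 of the 19, where 7.43% and 8.65% of all genes tested did not overlap.

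TGF-beta and Notch signals are the best known inducers of SNAI1 and SNAI2 in valve endothelium. For the 30 upstream genes tested 16 log2 fold changes were positive and 14 negative (19 and 11 without naive replicate 1), with a median of 0.08. NOTCH1, the Notch receptor of valve endothelium, was at 112.1, 160.0 and 143.3 CPM in naive and 216.2, 224.1 and 181.1 CPM in post-MI replicates 1, 2 and 3, without overlap (0.60 ± 0.18, SE; edgeR adjusted p = 0.506). TGFB2, the TGF-beta ligand of the valve cushion, was at 14.8, 40.1 and 34.0 CPM in naive and 57.1, 52.6 and 52.2 CPM in post-MI replicates 1, 2 and 3. It did not overlap (0.89 ± 0.34, SE; edgeR adjusted p = 0.566; 0.58 without naive replicate 1). The receptor TGFBR2 did not overlap and gave 0.83 ± 0.36 (0.49 without naive replicate 1). SMAD2, a mediator of TGF-beta receptor signals, was lower without overlap (-0.27 ± 0.13, SE). These 4 were the genes of the 30 that did not overlap, 3 upward and 1 downward, where 7.43% and 8.65% of all genes tested did not. The partner of TGFBR2, TGFBR1, gave -0.01 ± 0.14 and the ligand TGFB1 0.15 ± 0.13 (SE). SNAI2, TGFB2 and TGFBR2 each had their lowest level in naive replicate 1. HIF1A, the oxygen-sensing factor that can induce SNAI1 and TWIST1, shared its high library with SNAI1 but not with TWIST1. Naive replicate 1 held 763 CPM of HIF1A and the other 5 libraries 154.7 to 212.1 CPM, while TWIST1 was lowest in naive replicate 1 (1.91 CPM). The log2 fold change of HIF1A was -1.14 ± 0.54 (SE), and -0.16 without naive replicate 1. The part of these genes in the levels of the factors was not tested.

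Snail and ZEB factors are known to repress junction genes, mostly from work on epithelial cells. The table held 21 listed junction and epithelial genes, of which 10 passed the count filter, and CDH1, CLDN3, OVOL1 and OVOL2 had no count in any library. Log2 fold changes of the 10 were positive for 9 and negative for 1, and without naive replicate 1 positive for 6 and negative for 4. CDH5 (VE-cadherin, the adherens junction protein of endothelium) gave 0.21 ± 0.20, the tight junction scaffold TJP1 0.32 ± 0.20, and the tight junction genes CLDN1 0.52 ± 0.28 and OCLN 0.87 ± 0.65 (SE). Single libraries moved each of these, with naive replicate 1 left out to 0.39, 0.19, 0.28 and 0.40 respectively. With naive replicate 3 left out CDH5 gave 0.085 and OCLN 1.74, and CLDN1 gave 0.84 without naive replicate 2. Without post-MI replicate 1 TJP1 gave 0.18, and without post-MI replicate 2 CDH5 gave 0.097. CLDN5, the main endothelial claudin, was at 0.201, 3.50 and 4.55 CPM in naive and 14.1, 19.9 and 5.11 CPM in post-MI replicates 1, 2 and 3. Its groups did not overlap (log2 fold change 2.27 ± 0.89, SE), it gave 1.73 without naive replicate 1, and its adjusted p by edgeR was 0.566. Its level in naive replicate 1 rested on 4 counts. CLDN5 and SNAI2 had their higher levels in the same group of libraries. The part of the factors in the levels of the junction genes was not tested. MUC1, a mucin of epithelial surfaces, did not overlap either and gave 1.98 ± 0.64 (SE) and 0.86 without post-MI replicate 3. CLDN5 and MUC1 were the 2 of the 10 genes that did not overlap upward, where 7.43% of all genes tested did not. Downward it was 0 of the 10, where 8.65% of all genes tested did not overlap.

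Among 23 mesenchymal genes 12 log2 fold changes were positive and 11 negative, with a median of 0.06 and of -0.14 without naive replicate 1. POSTN (-1.44 ± 0.54, SE) and VCAN (-0.96 ± 0.37, SE), matrix genes of the valve, were lower without overlap, and gave -0.48 and -0.42 without naive replicate 1. They were the 2 of 23 genes that did not overlap downward, where 8.65% of all genes tested did not. TNC, tenascin C, gave -1.39 ± 0.65 and -0.18 without that library, while the contractile gene TAGLN gave 0.76 ± 0.34 (SE), 0.48 without naive replicate 1 and 1.17 without naive replicate 2. In naive replicate 1 ACTA2 was lowest (645 CPM, against 2155 to 5305 CPM elsewhere) and POSTN highest (3071 CPM, against 496 to 859 CPM elsewhere), as were SNAI2 and SNAI1 respectively. Of the marker lists, the 6 tested smooth muscle or pericyte genes had a median of 0.71, with 0.38 to 1.45 over the fits that left out 1 library (lowest without naive replicate 1, highest without naive replicate 2, and 0.41 without naive replicate 3). CNN1 had the largest log2 fold change of these (0.996 ± 0.638, SE; 0.55 without naive replicate 3 and 2.13 without naive replicate 2), with overlapping groups, and CSPG4, which did not overlap, gave 0.76 ± 0.31 (SE). The summed level of these markers was 272 to 587 CPM in the naive and 508 to 631 CPM in the post-MI libraries, and RGS5 had no count. Fibroblast markers had a median of -0.04, whose sign turned with single libraries: leaving out naive replicates 1, 2 and 3 in turn gave -0.25, 0.092 and 0.20. Of the 12 endothelial markers 10 log2 fold changes were positive and 2 negative, with a median of 0.44 (0.39 without naive replicate 1). ROBO4 gave 1.30 ± 0.37 and VWF 1.43 ± 0.49, and the 2 negative ones were KDR at -0.29 ± 0.44 and TEK at -0.31 ± 0.44 (SE). Both were positive without naive replicate 1, at 0.048 and 0.39. In that fit 11 endothelial markers were positive and 1, another one, was negative. Their part in the levels of the factors was not tested.

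**Figure D5:**
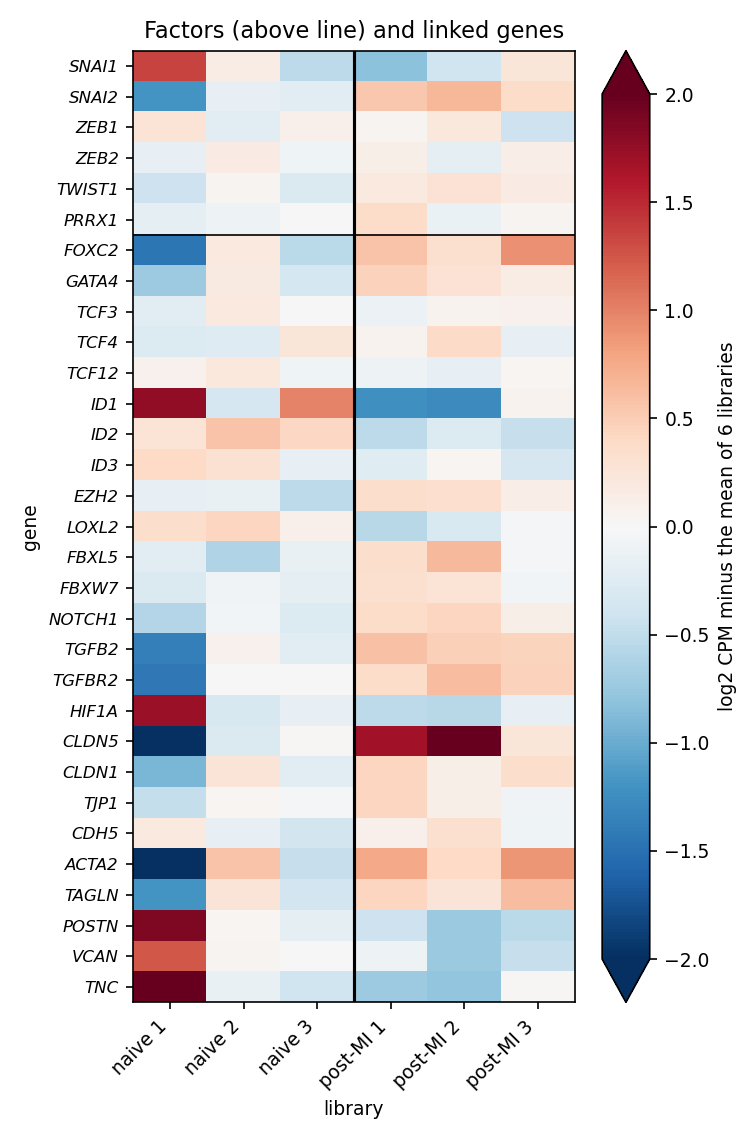
Log2 CPM of the 6 tested factors (above the horizontal line) and of linked genes, each minus its mean over the 6 libraries, with naive libraries left and post-MI libraries right of the vertical line; red is above and blue below the gene's mean, and values beyond 2 in either direction take the end colour. Naive replicate 1 has the highest SNAI1, HIF1A and POSTN and the lowest SNAI2, TGFB2 and ACTA2, and ID2 is above its mean in the 3 naive and below it in the 3 post-MI libraries.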

How the data were processed

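Messenger RNA of 6 libraries was sequenced as stranded paired ends, per the labels' protocols. The authors' tools, per the submitters' processing notes, were STAR 2.5.2b and featureCounts 2.0.0, SAMtools 1.9 and DESeq2 1.26.0, with MultiQC 1.5 and FastQC, on sheep build Oar_v3.1. Which annotation and strand setting were used is not given in the sources used here, so antisense or overlapping genes could share reads. The deposited table holds raw counts per gene symbol. The deposited per-sample signal equals those counts over 1 factor per library (100% of non-zero values within 0.01%), and each factor equals the DESeq2 size factor, so the counts were analysed. Groups and replicate numbers came from the titles.

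In R 4.3.3, genes were kept by filterByExpr of edgeR 4.0.16 (minimum count 10, total 15), scaled by TMM and compared by the quasi-likelihood test, adjusted over all genes at 0.05. SE is the absolute log2 fold change over the root of F. Centred profiles used log2 CPM with a prior count of 2. Alternatives were DESeq2 1.42.0, voom of limma 3.58.1, other scalings and filters, a replicate block and libraries left out. The test was tried on simulated data. Intervals and floors (3 counts) cover counting error only. No library batch is given.

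The factors and lists were chosen with earlier results of these data known. Named genes were all factors, the 3 nearest profiles of each, up to 4 genes of smallest p per list, and some fixed genes where the text turns on them. ID4, SMAD2, KDR and TEK were added after their values were seen. Also outside the rule were CTBP1, CTBP2, AJUBA, RCOR1, SIN3A, HDAC1, HDAC2, KDM1A, BTRC and FBXO11. A gene named by this rule is not reported here.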

Additional observations from a re-analysis of the deposited data

How the results depend on the processing

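Over 14 alternatives the direction of SNAI1, SNAI2, TWIST1, TWIST2 and PRRX1 did not turn and none of the 7 factors was called. Log2 fold changes with single libraries left out ran from -1.16 to -0.10 for SNAI1, 0.73 to 1.16 for SNAI2, -0.22 to 0.073 for ZEB1, -3e-04 to 0.16 for ZEB2, 0.35 to 0.59 for TWIST1, 0.41 to 1.51 for TWIST2 and 0.06 to 0.32 for PRRX1. Over all genes edgeR called 0 higher and 0 lower, with 660 and 584 at an unadjusted p under 0.05, and limma-voom called 0. DESeq2 called 152 genes higher and 66 lower, with no factor among them, and of the other named genes ID2 (-0.84) and ROBO4 (1.31).

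Leaving out naive replicate 1 and post-MI replicate 3 together was added after seeing the data. edgeR then called 3 genes higher (CLEC1A, IL1R1 and LOC101112335, named after their values were seen), SNAI2 gave 0.81 (adjusted p = 0.0843), and signs turned for ZEB1 (0.20), ZEB2 (-0.046), PDGFRA (0.13), TCF21 (-0.17), CD68 (0.045), TCF3 (-0.10), ID4 (-0.31), KDR (0.20) and TEK (0.57). With single libraries left out, ranges that crossed 0 were -0.62 to 0.039 for PDGFRA, -0.33 to 0.037 for CD14, -0.070 to 0.13 for TCF3, -0.066 to 0.066 for TGFBR1, -0.19 to 1.55 for ID4, -0.67 to 0.048 for KDR and -0.60 to 0.39 for TEK. The causes were not tested. With all 6 libraries 2 of the 6 tested factors did not overlap upward, where 7.43% of all genes tested did not. With 1 library left out it was 2 to 3 of the 7 factors, the added one being TWIST2 or PRRX1. The share over all genes was not computed for those smaller sets, so these counts have nothing to be set against.

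With the replicate number as a block, edgeR gave 1.05 for SNAI2 (adjusted p = 0.497) and called 0 genes. The numbers were not taken to pair the libraries, since no label says that a number marks a shared culture or donor. Deviations from the group means correlated across genes at 0.151, -0.109 and 0.092 for same-numbered libraries. For unlike numbers they correlated at -0.308 to 0.241, and with so few libraries these values cannot decide on pairing. TWIST2 rests on 2 to 15 counts per library, and counting error covers the margin of TWIST1.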
